A study of Lithobates clamitans with 20 samples.

Results

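Gut RNA of warm depleted tadpoles was compared with gut RNA of cool colonized tadpoles of the green frog (Lithobates clamitans), using 10 of the 20 libraries of the series, 1 library per tadpole. The members were taken by animal code: the 5 tadpoles whose codes start with D32 and the 5 whose codes start with C22. Cool colonized tadpoles developed with unmanipulated pond water mixed into their laboratory water and stayed at 22°C. Warm depleted tadpoles developed with pond water that had been autoclaved, which lowers the diversity of their gut microbes, and spent the last 24 h before dissection at 32°C. All of the tadpoles came from a single pair of adult frogs, were housed one to a container, ate autoclaved food and were chosen to be of similar size and stage. The spread within a group is thus that between siblings reared apart, together with that of dissection, library preparation and sequencing. With 1 library per tadpole these cannot be told apart. For these 10 tadpoles the treatment fields of the sample records and the animal codes name the same group. For the other 10 they do not: tadpoles with codes starting with C32 are recorded as cool and depleted, those with D22 as warm and colonized, and both sets are named here by their code prefix alone. The paper states that warm tadpoles were moved to another environmental chamber for the 24 h, while the others stayed in theirs. Temperature, colonization, chamber and transfer thus change together between the groups compared, and their parts in any difference cannot be told apart.

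A tadpole takes the temperature of its water, so warming reaches the gut as directly as any other organ. Heat is known to unfold proteins, and animal cells respond with heat shock proteins that refold or clear them, together with changes in transcription, RNA processing and metabolism. Gut epithelium also responds to its microbes, which supply metabolites and shape immune, barrier and detoxification genes in vertebrates. In the deposited table the genes are listed by identifiers of the American bullfrog genome, with no gene names beside them, so neither heat shock genes nor markers of gut tissue were looked up here, and 4 genes are printed by identifier. In bulk tissue, fewer cells of a type and less RNA per cell cannot be told apart.

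Between 11102195 and 19894322 reads per cool colonized tadpole and between 17557653 and 22922461 per warm depleted tadpole had been counted on the 8477 genes of the table. Mean depth was 15926400 ± 3226470 (SD, n = 5) and 20865500 ± 2140500 (exact permutation test, 2-sided, p = 0.0159, and 0.0635 after Benjamini–Hochberg adjustment over 4 library measures). The other 3 measures differed less: the scaling factor of edgeR's TMM method, which sets libraries of different composition on one scale (0.984 ± 0.198 and 1.05 ± 0.156), the number of genes with no reads (685.6 ± 90.4 and 732 ± 209) and the share of reads in the 10 most abundant genes (24.1% ± 5.76 and 24.5% ± 1.34), each with an adjusted p of 0.841 in the exact permutation test. Levels are given as CPM, the reads of a gene relative to the scaled total of its library. For Pearson's r between libraries of 1 group the totals were left unscaled, and 1 was added to each CPM before taking log2. This r ran from 0.782 to 0.875 in cool colonized and from 0.761 to 0.866 in warm depleted tadpoles, and none of these pairs was close enough to be repeats of 1 library. The scaling factor of the cool colonized tadpole C2206, at 0.643, was the lowest of the 10.

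Across the whole transcriptome the groups differed, while most of the variation lay between tadpoles of the same group. Permutational multivariate analysis of variance (a test of whether distances between groups exceed those within) on Bray–Curtis distances between the read counts gave F = 2.89, with 26.5% of the variation between groups (exact p = 0.0159, from every allocation of the tadpoles to groups of 5). With logarithms of scaled counts and Euclidean distances, in which abundant genes weigh less, the share was 15.5% (F = 1.47). The exact p of this test was 0.00794, the smallest that this design allows. Some share falls between groups of 5 even where the groups do not differ, so each share is read beside its exact p. The Bray–Curtis distances used counts not scaled for depth, which had a lower mean in cool colonized tadpoles. With reads drawn at random so that all 10 libraries had the smallest total, the share was 24.6% (same test, exact p = 0.00794). On the unscaled counts the groups still mixed: the mean distance was 0.320 between the groups, 0.296 within cool colonized and 0.249 within warm depleted tadpoles. The warm depleted tadpole D3203 lay closer on average to cool colonized tadpoles (0.278) than to its own group (0.302), and its nearest neighbour among the 10 was the cool colonized tadpole C2207, at 0.189. C2207 and C2201 in turn lay closer to the warm depleted group (0.269 and 0.238) than to their own (0.275 and 0.274). D3203 had the fewest reads of the warm depleted tadpoles and C2201 the most of the cool colonized ones. Whether these tadpoles mix at equal depth was not tested. The mean distance of tadpoles to the centroid of their group was 0.187 ± 0.0486 in cool colonized and 0.158 ± 0.0435 in warm depleted tadpoles (SD, n = 5, exact permutation test, 2-sided, p = 0.341). No difference in scatter was thus found, which with 5 tadpoles per group does not show that the scatter was equal.

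Few single genes passed the test. The quasi-likelihood test of edgeR, with an adjusted p under 0.05, called 28 of 8477 genes (0.33%), of which 9 were higher in warm depleted tadpoles (0.106% of the genes tested) and 19 lower (0.224%). An unadjusted p under 0.05 was found for 1798 genes (21.2%), of which 910 had higher and 888 lower means in warm depleted tadpoles. The adjusted p-values lay densely behind the threshold: 176 genes were under 0.1 and 1196 under 0.2. Over all genes the log2 fold changes centred on −0.01 (median), near 0 by the construction of TMM scaling. Of all genes, 1646 (19.4%) differed by at least 1 on the log2 scale.

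Of the genes that were lower, gene-AB205_0088990 had the smallest p. Its normalized counts were 20.4, 22.3, 26.3, 31.5 and 32.3 CPM in the cool colonized tadpoles C2201, C2208, C2206, C2204 and C2207, and 6.65, 6.76, 7.45, 7.86 and 8.13 CPM in the warm depleted tadpoles D3205, D3206, D3203, D3202 and D3207. The lowest cool colonized tadpole was thus well above the highest warm depleted one, and the warm depleted tadpoles lay within a narrow band. From 26.6 ± 5.32 to 7.37 ± 0.655 CPM (SD, n = 5) the gene fell by 1.85 on the log2 scale (standard error, SE, 0.18, edgeR quasi-likelihood test, adjusted p = 0.00596), and this call held with any 1 tadpole left out.

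The most abundant of the called genes was gene-AB205_0041460, which was also lower in warm depleted tadpoles. It had 682.7, 870.0, 907.5, 1086 and 1351 CPM in C2208, C2204, C2206, C2201 and C2207, and 279.5, 289.4, 300.9, 340.1 and 357.5 CPM in D3205, D3207, D3202, D3206 and D3203. All 5 cool colonized tadpoles stood above all 5 warm depleted ones, with a wider spread among the cool colonized. Its mean was 979 ± 252 CPM (SD, n = 5) in cool colonized and 313 ± 33.7 CPM in warm depleted tadpoles, a fall by 1.64 on the log2 scale (SE 0.22, edgeR quasi-likelihood test, adjusted p = 0.0175). The adjusted p was 0.0579 without C2201, 0.0619 without D3205, 0.0557 without D3206, 0.0562 without D3207 and 0.116 with libraries scaled by total counts.

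Among the genes that were higher, gene-AB205_0054390 had the smallest adjusted p. It was found at a low level in cool colonized tadpoles, with 3.73, 3.90, 4.07, 4.47 and 5.46 CPM in C2206, C2207, C2208, C2201 and C2204. In warm depleted tadpoles it had 10.5, 11.4, 12.1, 13.9 and 14.9 CPM in D3203, D3202, D3206, D3207 and D3205, so the groups did not overlap. The means were 4.32 ± 0.690 and 12.5 ± 1.83 CPM (SD, n = 5), a rise by 1.54 on the log2 scale (SE 0.18, edgeR quasi-likelihood test, adjusted p = 0.00991). Scaling by total counts moved the adjusted p to 0.0891.

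Of the genes that rose, gene-AB205_0111400 was the most abundant. Cool colonized tadpoles had 36.5, 39.8, 44.6, 54.4 and 81.4 CPM, the highest of them in C2206, and warm depleted tadpoles 129.4, 159.7, 161.8, 162.8 and 174.5 CPM, the lowest of them in D3203. Even C2206 stayed well short of D3203. The means of 51.3 ± 18.1 and 157.6 ± 16.8 CPM (SD, n = 5) differed by 1.62 on the log2 scale (SE 0.24, edgeR quasi-likelihood test, adjusted p = 0.0251). This call needed nearly all of the tadpoles: it was lost without any 1 of C2201, C2204, C2207, C2208, D3202, D3205, D3206 and D3207, with an adjusted p between 0.0615 and 0.0869, although the log2 fold change stayed between 1.52 and 1.86 whichever tadpole was left out.

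**Figure D1:**
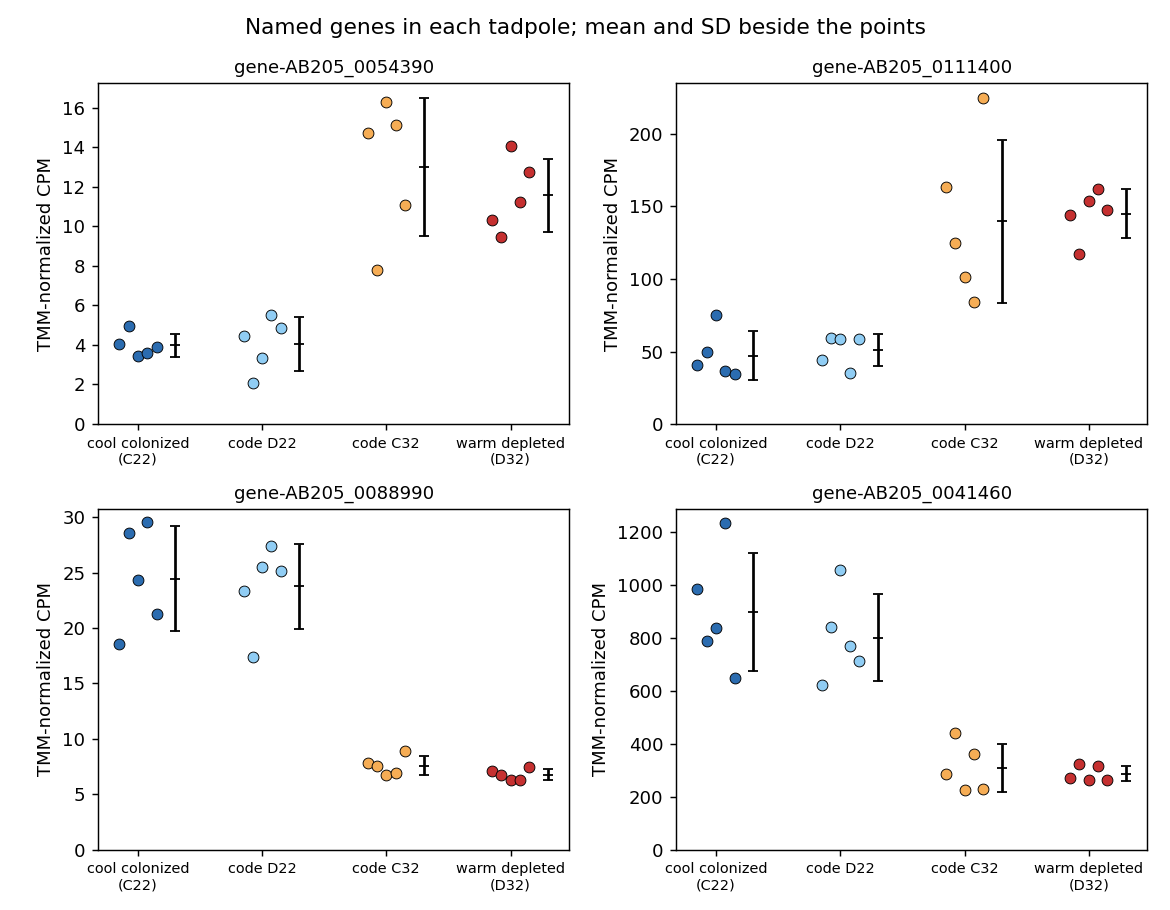
TMM-normalized CPM of the 4 named genes in each of the 20 tadpoles (linear axes from 0, scaling over 20 libraries), with the mean and SD of each group of 5 beside the points. In each panel the 5 warm depleted (D32) tadpoles stand apart from the 5 cool colonized (C22) tadpoles, and tadpoles with codes C32 and D22 are shown beside them.

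Together, the 28 called genes covered a wide span of sizes. Leaving aside 2 genes that were at 0 in a whole group, the differences ran from 1.88-fold to 18.4-fold in 8 genes that were higher and from 2.30-fold to 18.3-fold in 18 genes that were lower. The median log2 fold changes were 1.58 and −1.72 over all 9 and all 19, with the genes at 0 set to the bound that a floor of 3 counts per library gives. All but 1 of the 28 differed by at least 1 on the log2 scale. The exception, chosen after its values were seen, was the smallest rise, 1.88-fold (0.91 on the log2 scale, SE 0.15), in a gene whose cool colonized tadpoles lay close together at 32.1 ± 2.23 CPM (SD, n = 5) against 60.5 ± 8.83 CPM in warm depleted ones. The largest measured fall was in a gene that went from 862.0 ± 223.2 to 47.2 ± 22.6 CPM, 18.3-fold. Its lowest cool colonized value was 8.73 times its highest warm depleted value, the widest gap of the genes found in both groups. Called genes were found at all levels of expression: with the genes in 4 bins of equal size, from the least to the most abundant, 2, 7, 10 and 9 were called.

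One of the called genes, at 0 in all 5 cool colonized tadpoles, had 18 to 64 reads in each of the 5 warm depleted tadpoles. At 1.81 ± 0.584 CPM (SD, n = 5) it was at least 8.78-fold higher there, taking 3 reads per library as the floor (edgeR quasi-likelihood test, adjusted p = 0.0485). Another had 168 to 285 reads in each cool colonized tadpole and none in any warm depleted one, which with that floor is at least 119-fold lower (edgeR quasi-likelihood test, adjusted p = 0.00960). Whole-group absence was otherwise scattered. Of the 95 genes with reads in warm depleted but in no cool colonized tadpole, 1 was found in all 5 warm depleted tadpoles and 42 in a single one. Of the 148 with reads in cool colonized but in no warm depleted tadpole, 2 were found in all 5 and 57 in a single one. Such floors allow for counting error alone, since PCR copies cannot be told from separate molecules in these counts. Nor do they allow for a gene that is at 0 in some tadpoles of a code group and well counted in others. The gene at 0 in all warm depleted tadpoles had 218 reads in C3204 and 302 in C3210, but 0 in C3205, C3207 and C3208. Whether a count of 0 reflects the assignment of reads to genes was not tested, so both fold bounds hold only if it does not.

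Many more genes separated the tadpoles completely than were called. In 556 of 8477 genes (6.56%) the normalized CPM of the groups did not overlap, 302 of them with the warm depleted tadpoles on top and 254 with the cool colonized, and the 28 called genes all belonged to these. The median log2 fold change of these genes was 0.94 for those that were higher and −1.17 for those that were lower, and 135 of the former and 146 of the latter differed by at least 1 on the log2 scale. Non-overlap was least frequent among the genes of lowest abundance, in 3.40% of the bin of least abundant genes, against 6.37%, 8.31% and 8.16% of the next bins. At low abundance the fold changes themselves were not smaller: the median absolute log2 fold change was 0.74 in the least and 0.41 in the most abundant bin.

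The number of called genes depended on the test and on the libraries in the fit. DESeq2 called 1109 genes, limma voom 222, edgeR's likelihood ratio test 205 and its exact test 158. Each of these lists held 27 or 28 of the 28 genes. With all 20 libraries in 1 fit of 4 groups, which estimates the spread of each gene from 16 residual degrees of freedom in place of 8, the same contrast called 445 genes (5.25%), 226 higher and 219 lower, including 27 of the 28. The gene that was not called there rose from 5.02 ± 0.747 to 10.4 ± 1.49 CPM (SD, n = 5) between the groups compared and was at 0 in 1 of the D22 tadpoles. With libraries scaled by total counts 14 genes were called, 11 of them among the 28. Thinning all 10 libraries to the smallest total, which takes away the difference in depth, left 25 calls, 23 of them among the 28.

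Single tadpoles also moved the count. Leaving out D3203, the warm depleted tadpole nearest to the cool colonized group by the distances of unscaled counts, raised it from 28 to 73 genes, 41 higher and 32 lower. Leaving out any other tadpole lowered it, to 15 without C2201 or C2207, 16 without D3206, 17 without C2206 and between 19 and 23 without the rest. The count of genes with no overlap rises by construction when a tadpole is left out, and it rose most without D3203, by 511 to 1067, and next without C2204, by 313 to 869. Without C2206 and D3203 together, a pair chosen after the values were seen, 30 genes were called.

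**Figure D2:**
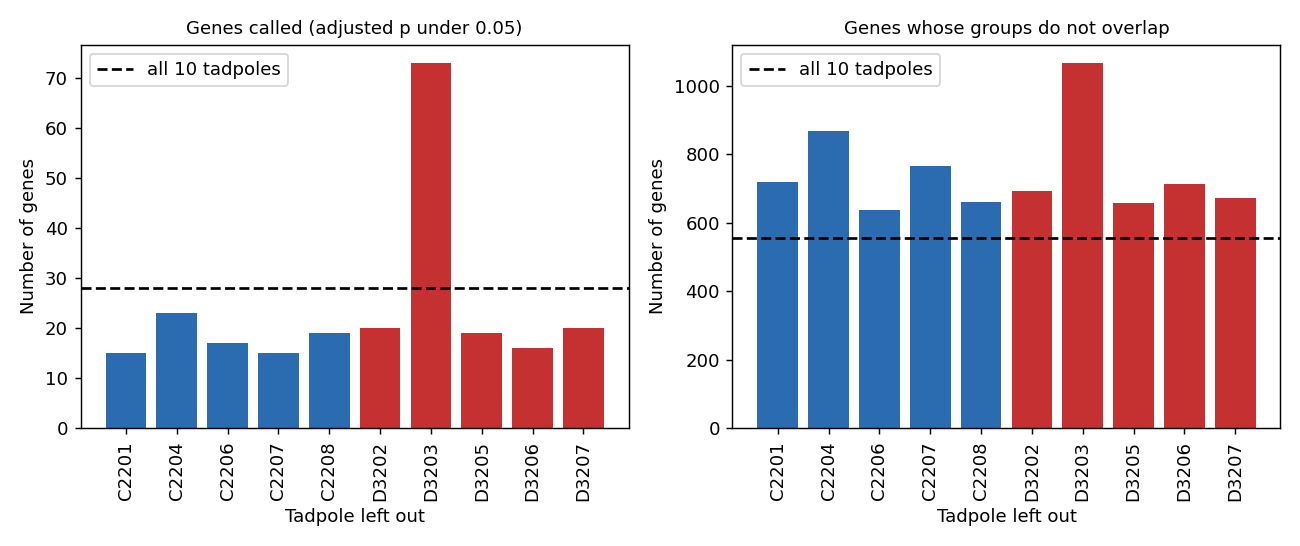
Number of genes called by edgeR's quasi-likelihood test (left) and number of genes whose groups do not overlap (right) with each tadpole left out in turn, blue for cool colonized and red for warm depleted, with the value for all 10 tadpoles as a dashed line. D3203 stands out in both panels, at 73 and 1067 genes.

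Whether the same genes moved elsewhere was read in the 10 libraries that took no part in the comparison, the 5 with codes C32 and the 5 with codes D22. By code these are warm colonized and cool depleted tadpoles, and by their treatment fields cool depleted and warm colonized tadpoles. In a fit of their own, C32 over D22, 27 of the 28 genes had the same direction as warm depleted over cool colonized, 9 of the 9 that were higher and 18 of the 19 that were lower. The median log2 fold change in these libraries was 1.45 for the genes that were higher and −1.51 for those that were lower. For all genes this median was 0.04, near 0 by the construction of TMM scaling. Of the 28 genes, 20 were called in this fit too (71.4% of the 28, and 2.29% of the 875 genes called there), all in the same direction. Of the 556 genes without overlap, 516 (92.8%) had the same direction. Over all 8477 genes it was 5947 (70.2%), and of the 875 genes called in C32 over D22 it was 809 (92.5%). Pearson's r between the log2 fold changes of the 2 comparisons was 0.155 over all genes. This r weighs all genes alike and takes those at 0 in a whole group as fitted, without a floor. In C32 over D22 the log2 fold changes ran from −14.6 to 14.6. Genes are not independent replicates, so these shares describe the lists.

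The fit of C32 against D22 called 875 genes, 10.3% of those tested, with 384 higher and 491 lower in C32, and 999 genes (11.8%) did not overlap. This is 31.3 times the number called between warm depleted and cool colonized tadpoles, but that ratio holds for this test alone. The counts were 2012 and 1109 with DESeq2, and 1166 and 222 with limma voom. They were 774 and 205 with edgeR's likelihood ratio test, and 693 and 158 with its exact test. The quasi-likelihood test with total counts gave 1326 and 14. The share of genes that differed by at least 1 on the log2 scale was close, at 21.1% against 19.4%. Whether the counts differ by more than the spread between tadpoles was not tested. The count of 875 fell to between 348 and 527 without any 1 of C3204, C3207, C3208, C3210, D2201, D2202, D2203 and D2206, and it was 620 without C3205 and 1284 without D2209. When these libraries were scaled by total counts, the split in C32 against D22 became 1212 higher and 114 lower, while the median over all genes moved from 0.04 to 0.51 on the log2 scale, so directions in these libraries are read here with TMM scaling, relative to that median. Over the whole transcriptome, on counts not scaled for depth, the mean Bray–Curtis distance was 0.226 between warm depleted and C32 tadpoles. This was less than the 0.249 among warm depleted tadpoles, and it was 0.310 between warm depleted and D22 tadpoles. From cool colonized tadpoles the mean distance was 0.304 to C32 and 0.307 to D22 tadpoles.

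**Figure D3:**
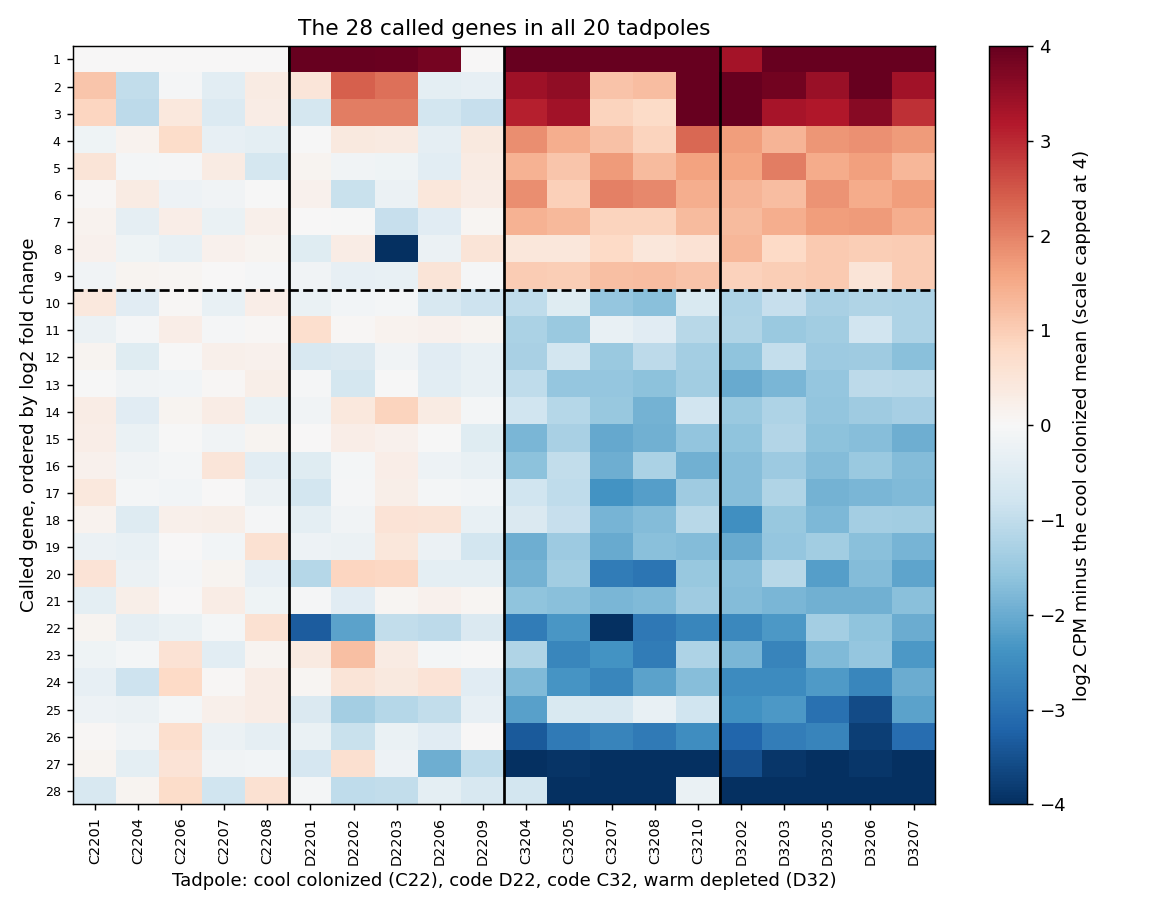
The 28 called genes (rows, ordered from the largest rise to the largest fall, dashed line between the 9 that were higher and the 19 that were lower) in all 20 tadpoles (columns, in 4 groups of 5), as log2 CPM minus the mean of the cool colonized tadpoles, capped at 4. Most rows have like colours in C32 and warm depleted columns, and D22 columns are mostly near 0.

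On the 28 genes the C32 tadpoles sat with warm depleted tadpoles and the D22 tadpoles with cool colonized ones. Each gene was split at the midpoint between the means of the groups compared, on the log2 scale and with TMM scaling over 20 libraries. The C32 tadpoles were on the warm depleted side in 24 (C3204), 25 (C3205), 24 (C3207), 23 (C3208) and 26 (C3210) of the 28 genes, and the D22 tadpoles in 3 (D2201), 5 (D2202), 4 (D2203), 4 (D2206) and 2 (D2209). No C32 tadpole came near a D22 tadpole in this count. In the 9 genes that were higher, the median difference from the cool colonized mean was 1.16 to 1.85 on the log2 scale in C32 tadpoles, beside 1.47 to 1.76 in warm depleted tadpoles, whose own values chose the genes. D22 tadpoles had −0.36 to 0.30. For the 19 genes that were lower these medians were −2.01 to −1.43 in C32, −1.87 to −1.55 in warm depleted and −0.31 to 0.15 in D22 tadpoles. Over all genes they lay between −0.06 and 0.07 in each of the 20 tadpoles, near 0 by the construction of TMM scaling.

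**Figure D4:**
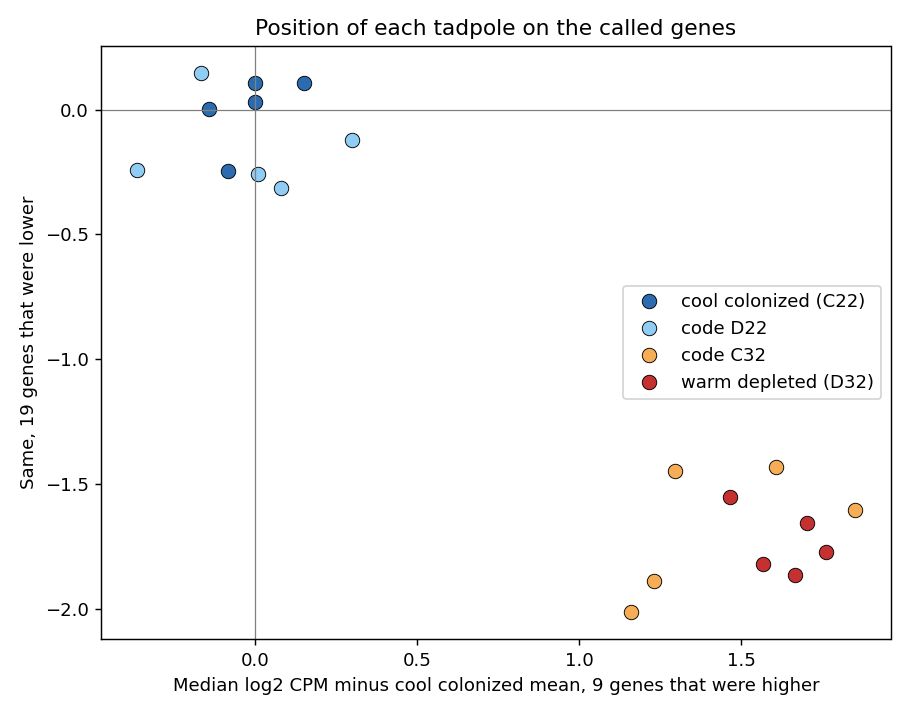
Each of the 20 tadpoles by its median difference from the cool colonized mean, in log2 CPM, over the 9 genes that were higher (horizontal) and the 19 that were lower (vertical) in warm depleted tadpoles. C32 tadpoles lie with warm depleted tadpoles at the lower right and D22 tadpoles with cool colonized tadpoles near 0.

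By group means, C32 lay on the warm depleted side and D22 on the cool colonized side in 25 of the 28 genes, in 372 of the 556 genes without overlap (66.9%) and in 3224 of the 8454 genes with reads in the 10 libraries (38.1%). The reverse arrangement, C32 on the cool colonized and D22 on the warm depleted side, was found in 0 of the 28, 6 of the 556 and 903 of the 8454 genes (10.7%). In 18 of the 28 genes all 10 tadpoles with codes C32 or D32 were apart from all 10 with codes C22 or D22. The same was found in 125 of the 556 genes without overlap and in 129 of the 8454 genes. In the 28 and the 556 genes D32 tadpoles were already apart from C22 tadpoles, so the 556 are the nearer comparison. The groups compared chose these genes and also set the midpoints and the cool colonized mean from which C32 and D22 tadpoles were placed. Only the difference between C32 and D22 tadpoles is thus a reading independent of the choice.

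The named genes followed this arrangement. With scaling over 20 libraries, gene-AB205_0088990 had 24.4 ± 4.70 CPM (SD, n = 5) in cool colonized, 23.8 ± 3.83 in D22, 7.58 ± 0.844 in C32 and 6.77 ± 0.504 in warm depleted tadpoles. C32 and warm depleted tadpoles overlapped, as did cool colonized and D22 tadpoles, and the pairs stood apart. For gene-AB205_0041460 the means were 899.5 ± 222.8 CPM in cool colonized, 801.6 ± 164.2 in D22, 308.7 ± 92.2 in C32 and 288.1 ± 29.2 in warm depleted tadpoles. For gene-AB205_0054390 they were 3.98 ± 0.595, 4.04 ± 1.36, 13.0 ± 3.50 and 11.6 ± 1.86 CPM in the same order. For gene-AB205_0111400 they were 47.2 ± 16.6, 51.2 ± 11.0, 139.8 ± 56.2 and 145.1 ± 17.2 CPM. In their own fit, C32 over D22, the log2 fold changes of these 4 genes were −1.64, −1.37, 1.68 and 1.45 (edgeR quasi-likelihood test, adjusted p = 0.00248, 0.0123, 0.0150 and 0.0188).

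The 1 called gene that did not keep its direction between C32 and D22 tadpoles, singled out for that reason, had another pattern. Scaled over 20 libraries it had 45.1 ± 7.62 CPM (SD, n = 5) in cool colonized and 7.34 ± 2.69 in warm depleted tadpoles, with C32 at 26.0 ± 9.97 and D22 at 25.2 ± 7.55 between them. Its values overlapped between C32 and D22 tadpoles (9.72 to 36.7 and 17.4 to 35.8 CPM), where the log2 fold change was 0.04 (edgeR quasi-likelihood test, adjusted p = 0.960). C3204, at 9.72 CPM, was the only C32 tadpole within the range of warm depleted tadpoles. Nor did the gene that was at 0 in all cool colonized tadpoles part C32 from D22 tadpoles: it had 41 to 81 reads in the 5 C32 tadpoles and 17 to 65 in 4 of the D22 tadpoles, with none in D2209. The gene that was at 0 in all warm depleted tadpoles had reads in 5 of 5 D22 tadpoles and in 2 of 5 C32 tadpoles.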

How the data were processed

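Paired-end reads of each gut library had been passed by the authors through Trim Galore, aligned to the draft genome of the bullfrog by BWA, and assigned to genes by StringTie. Versions were not given in the sources used here. The deposited values are raw counts, in whole reads, from which the authors had left out weakly expressed transcripts: each of the 8477 genes has at least 2 CPM in at least 3 of the 20 libraries. Mapping a green frog to a bullfrog genome may lower the counts of diverged genes in all libraries alike. No filter was added.

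Counts of the 10 libraries were scaled by TMM and tested with edgeR 4.0.16 (glmQLFit and glmQLFTest, R 4.3.3), warm depleted over cool colonized, with Benjamini–Hochberg adjustment over all genes and an adjusted p under 0.05. Standard errors were obtained by dividing a gene's log2 fold change, without its sign, by the root of its F statistic. Log2 CPM used a prior count of 2, except in Pearson's r. Permutational analysis of variance (PERMANOVA) used Bray–Curtis distances from vegan 2.7.1, with all allocations enumerated. The named genes are, in each direction, the called gene without overlap that has the smallest adjusted p (ties broken by p) and the one among the rest with the highest mean CPM. Members, lists and tests were chosen with earlier results of these data known. Alternatives were DESeq2 1.42.0 (which left 264 adjusted p-values as NA), limma 3.58.1 (voom with quality weights), edgeR's exact and likelihood ratio tests, total counts, RLE size factors, 2 count filters, stricter thresholds, all 4 groups in 1 fit, thinned libraries and each tadpole left out. Fits were run on simulated data as a check of the code. The simulated spread between libraries was smaller than that of these data, and only large changes in well-counted genes were planted. That check therefore does not measure recovery or false calls at the spread found here.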

Additional observations from a re-analysis of the deposited data

How the results depend on the processing

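The number of genes called between warm depleted and cool colonized tadpoles was 1109 with DESeq2, 158 with edgeR's exact test, 205 with its likelihood ratio test, 222 with limma voom, 14 with total counts, 445 with all 4 groups in 1 fit and 11 at an adjusted p under 0.01, and it ran from 15 to 73 with 1 tadpole left out. It stayed within 1.5 times of 28 with RLE size factors, both count filters, thinned libraries and a minimum log2 fold change of 1, and without C2206 and D3203 together. Genes without overlap numbered 637 to 1067 with 1 tadpole left out and 1176 without C2206 and D3203, and fell to 373 with total counts. PERMANOVA kept an exact p under 0.05 under all 15 alternatives, with 15.5% to 38.2% of the variation between groups and 24.6% to 34.5% with 1 tadpole left out, where the exact p reached 0.0476 without D3207. Between C32 and D22 tadpoles 2012 genes were called with DESeq2 and 1326 with total counts, and with 1 tadpole left out 348 (without D2203) to 1284 (without D2209). The share of called genes with the same direction there was 84.2% to 100% with 1 of the 20 tadpoles left out. It was 87.1% of the DESeq2 calls, 83.5% of the exact test calls and 82.9% of the likelihood ratio test calls. A stricter threshold gives fewer calls by construction, and the cause of the other shifts was not tested.

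Only the numbers 6 and 7 occur in the codes of both groups, and they name separate animals. With that number as a replicate block among these 4 tadpoles, edgeR's quasi-likelihood test, on 1 residual degree of freedom, called 0 genes, with 1068 at an unadjusted p under 0.05. Genes at a few reads per library and differences smaller than the spread within a group are limited by depth and by 5 tadpoles per group, and the depths of the groups overlapped, with a lower mean in cool colonized tadpoles.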

Other observations

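Beside the single largest fall, the steepest measured rises among the called genes came from 2 genes that moved in parallel, a pair chosen after the values were seen. With scaling over 20 libraries, the first had 4.35 ± 2.55 CPM (SD, n = 5) in cool colonized and 79.7 ± 65.7 CPM in warm depleted tadpoles, and the second had 5.67 ± 2.79 and 76.7 ± 58.6 CPM. D3202 held the highest warm depleted value of both, at 196 and 180 CPM, and C3210 the highest of all 20 tadpoles, at 223 and 232 CPM. The ratio of their reads, first over second, ran from 0.889 to 1.11 in the 5 warm depleted tadpoles while the reads themselves ran from 998 to 3944. In cool colonized tadpoles, at 33 to 222 reads, the ratio ran from 0.537 to 0.905. Over all 20 tadpoles the ratio ran from 0.537 to 1.78, with the highest in D2201, at 80 and 45 reads. C32 tadpoles differed widely among themselves in both genes, from 8.65 to 223 CPM in the first and from 8.78 to 232 CPM in the second, so that C3207 and C3208 fell below the highest D22 tadpole. Whether these are neighbouring or near-identical copies that share reads, or pieces of 1 gene in a draft genome, was not tested.

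No value among 30 groups of 5 tadpoles (library measures, distances to centroids, the named genes and the medians over called genes in C32 and D22 tadpoles) was far enough from its group to pass Dixon's 95% limit for outliers. The other called genes were not tested in this way. Among them is the parallel pair above, in which D3202 had 196 and 180 CPM. The next highest warm depleted tadpole, D3206, had 62.7 and 64.7 CPM, so D3202 raised both warm depleted means.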
